A study of Homo sapiens with 5 samples.

Results

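The subject here is the unmethylated promoter CpG islands of a human induced pluripotent stem cell (iPSC) line. The deposited table divides the covered genome into 288391 windows of 1000 bases, of which 16238 (5.63%) were annotated both as CpG island and as promoter. Of these, 15511 had a deposited coverage of at least 100 in all 5 libraries, which after the authors' scaling is taken out left at least 83 calls per member in each library, and 11293 (72.8%) had a mean β-value below 10% over the 5 libraries. These 11293 windows are the members, and they belong to 9709 gene identifiers, of which 1584 have 2 member windows. The members were chosen by the level itself, so levels are given as a description, with no test. The labels give the cells as the line HPS0063 (Riken BRC, 201B7) with the genotype WT, and the exposure lasted 48 h. Other assays of the study used cells of that line carrying a fluorescent methylation probe, mCherry-MBD-nls, and whether the sequenced cells carried it was not settled by the sources used here. The vehicle control received 0.1% DMSO. The chemicals were etoposide at 1 nM, propyl gallate and theophylline each at 1 µM, and 5-aza-dc at 10 nM. Etoposide is a topoisomerase II poison, propyl gallate an antioxidant food additive, theophylline a phosphodiesterase inhibitor, and 5-aza-dc (decitabine) a nucleoside that traps DNA methyltransferases. The study had classed the first pair as raising and the second as lowering its imaging readout of methylation, and the sequencing addressed what the 4 chemicals do to DNA methylation itself. Each condition is 1 library of 1 line, so a difference between conditions cannot be set against a spread between cultures, and the drug, the culture and the library cannot be told apart.

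CpG islands are stretches of DNA in which the dinucleotide CG has kept a high density, and a large share of human genes, housekeeping genes among them, start in one. Methyl groups are placed on the cytosine of CG by the DNA methyltransferases, and DNMT1 copies them onto the new strand at replication. Islands at gene starts are usually kept free of methylation, and methylation across such an island is a mark of stable silencing, as on germline genes in somatic cells. Reduced representation bisulfite sequencing (RRBS) cuts DNA at CCGG, which enriches islands, and reads as methylated the cytosines that bisulfite did not convert. The β-value is the share of methylated calls, where 1 call is 1 CG cytosine in 1 read. It is given here in percent, and differences in percentage points. Calls of 1 read and of its PCR copies are not independent, and intervals and limits cover counting error only. A low level can also come from incomplete conversion, whose rate was not given in the sources used here.

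The promoters of 6 genes are shown, since they carry the range of what follows. JAG1 (a Notch ligand) was among the genes the study followed, MAEL is a germline gene of transposon silencing, UTF1 is a chromatin factor of pluripotent cells, and SGCB (β-sarcoglycan), ARMCX1 and ZXDA had large differences between libraries. The sequences are from RefSeq on GRCh38.p14, from 250 bases before to 50 bases after the gene start, 5′ to 3′ on the strand of the gene, with every CG in capitals. They lie at chr20:10673950-10674249 (JAG1, minus strand), chr1:166975332-166975631 (MAEL, plus), chr10:133229967-133230266 (UTF1, plus), chr4:52038250-52038549 (SGCB, minus), chrX:101550297-101550596 (ARMCX1, plus) and chrX:57910409-57910708 (ZXDA, minus).
JAG1: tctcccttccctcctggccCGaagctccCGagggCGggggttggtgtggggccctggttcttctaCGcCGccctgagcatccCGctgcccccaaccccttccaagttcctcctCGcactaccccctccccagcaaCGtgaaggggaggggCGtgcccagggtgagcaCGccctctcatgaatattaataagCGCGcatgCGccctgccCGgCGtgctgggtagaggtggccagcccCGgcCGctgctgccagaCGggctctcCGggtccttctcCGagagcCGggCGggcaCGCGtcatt
MAEL: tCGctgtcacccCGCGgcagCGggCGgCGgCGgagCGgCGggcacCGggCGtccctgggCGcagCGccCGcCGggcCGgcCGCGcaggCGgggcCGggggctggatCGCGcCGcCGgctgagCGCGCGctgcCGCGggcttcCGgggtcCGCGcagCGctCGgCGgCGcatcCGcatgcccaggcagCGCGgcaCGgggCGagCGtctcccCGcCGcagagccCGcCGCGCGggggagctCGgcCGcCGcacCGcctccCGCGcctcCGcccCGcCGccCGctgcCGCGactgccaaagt
UTF1: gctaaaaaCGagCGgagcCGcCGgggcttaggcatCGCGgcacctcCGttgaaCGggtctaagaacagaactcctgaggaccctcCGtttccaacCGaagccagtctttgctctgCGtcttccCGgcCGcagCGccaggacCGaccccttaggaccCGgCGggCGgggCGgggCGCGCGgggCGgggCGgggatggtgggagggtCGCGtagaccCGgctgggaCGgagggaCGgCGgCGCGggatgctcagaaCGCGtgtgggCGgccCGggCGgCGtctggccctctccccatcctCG
SGCB: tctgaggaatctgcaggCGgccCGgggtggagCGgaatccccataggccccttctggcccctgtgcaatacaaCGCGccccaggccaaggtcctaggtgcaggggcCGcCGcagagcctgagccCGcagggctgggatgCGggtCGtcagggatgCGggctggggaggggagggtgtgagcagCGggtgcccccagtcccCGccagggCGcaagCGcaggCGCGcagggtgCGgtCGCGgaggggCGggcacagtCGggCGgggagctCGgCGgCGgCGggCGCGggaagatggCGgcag
ARMCX1: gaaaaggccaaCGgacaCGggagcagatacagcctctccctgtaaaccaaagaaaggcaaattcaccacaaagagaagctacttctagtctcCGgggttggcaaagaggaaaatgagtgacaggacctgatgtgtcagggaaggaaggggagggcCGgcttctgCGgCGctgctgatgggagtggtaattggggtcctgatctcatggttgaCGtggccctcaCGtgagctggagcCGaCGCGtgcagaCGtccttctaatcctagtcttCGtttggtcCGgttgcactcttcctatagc
ZXDA: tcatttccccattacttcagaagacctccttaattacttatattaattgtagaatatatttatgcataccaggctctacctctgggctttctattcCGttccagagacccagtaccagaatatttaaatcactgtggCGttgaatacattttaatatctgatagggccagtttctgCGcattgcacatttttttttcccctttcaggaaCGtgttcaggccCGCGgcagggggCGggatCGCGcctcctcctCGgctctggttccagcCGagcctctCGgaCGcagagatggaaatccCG
The number of CG sites in these 300 bases was 24 for JAG1, 60 for MAEL, 39 for UTF1, 30 for SGCB, 14 for ARMCX1 and 14 for ZXDA. ZXDA has no CCGG in this stretch.

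Promoter islands fell into a tall peak near 0 and a small one near full methylation. Of the 15511 windows, 55.9% had a mean level below 2%, 12.0% lay between 10% and 70%, and 15.2% at 70% or more. Among the members, the median level was 1.00%, with quartiles of 0.706% and 1.87%. The classes were 7.0% of the members below 0.5%, 42.8% from 0.5% to 1%, 27.0% from 1% to 2%, 15.7% from 2% to 5% and 7.57% from 5% to 10%. The members nearest below the limit were C2CD4C at 9.97%, TLCD3A at 9.93%, PJVK at 9.92% and RHOA at 9.92%, with ENSG00000280168 at 9.93%. The nearest above it were ADAMTSL4, LINC03006, FNBP1, PACS1 and TYMP, each at 10.0%. In JAG1 the window that holds most of the promoter (chr20:10674001-10675000) was at 0.220% in the vehicle control. The etoposide and propyl gallate libraries had 0.537% and 0.365% there, and the theophylline and 5-aza-dc libraries 0.505% and 0.642%. Each of the 4 was above the vehicle control. The other JAG1 window (chr20:10673001-10674000) was at 0.723% in the vehicle control, and at 0.280%, 0.816%, 0.694% and 0.910% in the same order, so the etoposide library lay lowest there. The adjusted p of the 4 comparisons by Fisher's exact test was between 0.171 and 0.754 in the first window and between 0.0969 and 0.982 in the other, and none was called.

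**Figure D1:**
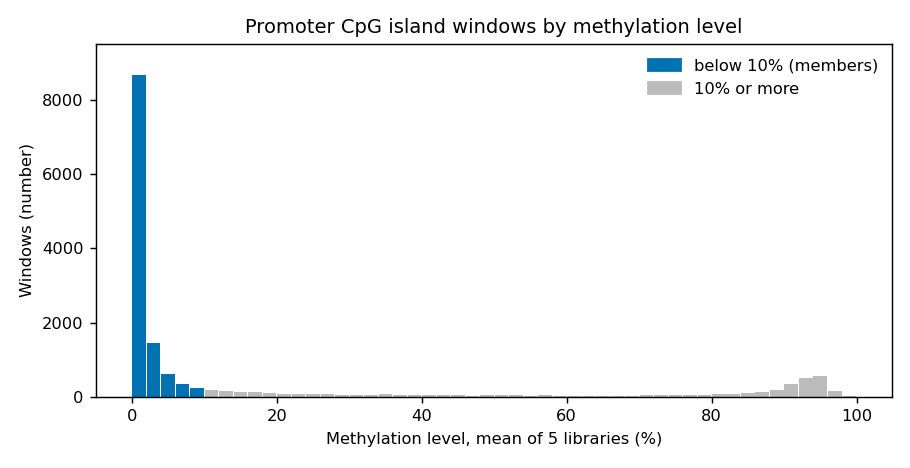
Number of promoter CpG island windows (vertical axis) by methylation level as the mean of the 5 libraries in percent (horizontal axis, bars of 2 percentage points), with the members in blue and the windows of 10% or more in grey. The first bar holds 8663 of the 15511 windows, and a second small peak of 559 windows stands at 94% to 96%.

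The members were deeply covered. The libraries held between 24271045 and 29588862 calls in the member windows, and the median member had between 1872 and 2290 calls per library, against 398 to 499 over all windows. The half-width of the 95% Wilson interval of a member in the vehicle control had a median of 0.448 points. The share of promoter island windows that were members rose with depth, from 57.8% of the windows under 500 calls in the vehicle control to 87.9% of those with 4000 calls or more.

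Unmethylated windows held the gene start more often than the others. The start of the gene lay inside 79.7% of the members and inside 56.6% of the 4218 promoter island windows of 10% or more. For genes with an entry in the RefSeq promoter table, 73.1% of the members and 43.1% of the windows of 10% or more shared at least 150 bases with the RefSeq promoter. Promoter is the label of the deposited table, and it can refer to a gene boundary away from the main start. Members with the start inside had a median level of 0.965% and the 2289 others 1.26%. Of the first, 6.64% reached 5% or more, and of the second, 11.2%.

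The low level was narrow in space. Around the 9004 members that hold their gene start, the mean level in the vehicle control was 73.4% at 5 kb upstream, 31.2% at 1 kb upstream, 1.68% in the member, 15.9% at 1 kb downstream, 52.6% at 2 kb downstream and 72% at 5 kb downstream. Not every neighbour was measured: these means rest on 1661, 3902, 9004, 5356, 2371 and 1682 windows in that order. The valley reached farther into the gene than upstream: 74.3% of the measured windows next downstream were below 10%, against 55.2% of those next upstream. Members beside methylated windows were themselves somewhat higher. Among the 2789 members with both neighbours measured, the median was 0.878% with both neighbours below 10%, 1.19% with 1 neighbour of 10% or more and 1.48% with 2. UTF1 shows such an edge: its member window (chr10:133230001-133231000) was at 1.74%, 1.33%, 2.0%, 2.46% and 1.88% in the vehicle control, etoposide, propyl gallate, theophylline and 5-aza-dc libraries, and the window just upstream at 18.2%, 16.2%, 13.7%, 9.73% and 20.8%.

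**Figure D2:**
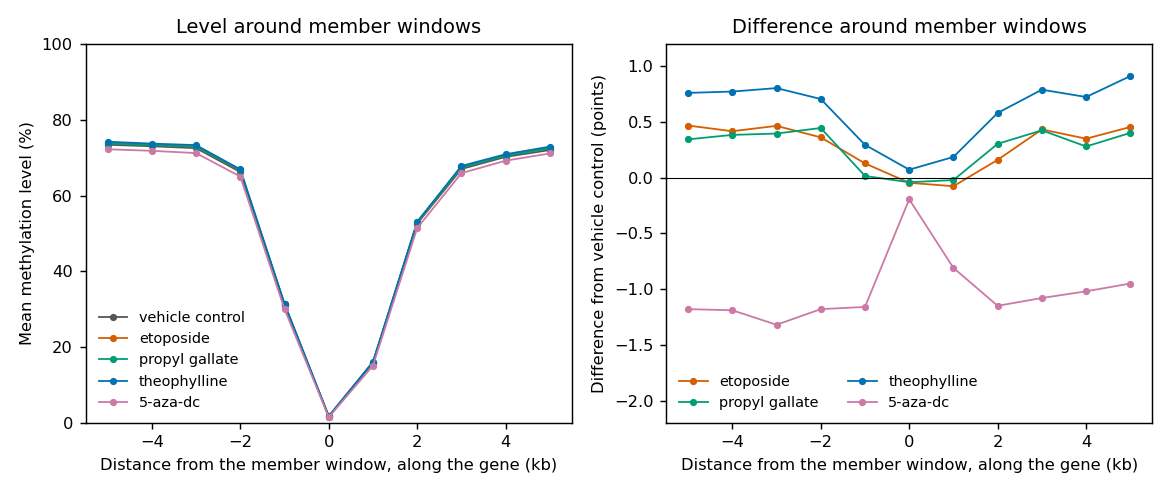
Mean methylation level in percent of each library (left) and its difference from the vehicle control in percentage points (right) by distance in kb from the member windows that hold their gene start, upstream to the left, with 1 point per library and distance. The 5 libraries run almost together from 73.4% in the vehicle control at -5 kb to 1.68% at 0, and the difference of 5-aza-dc shrinks from -1.18 points at -5 kb to -0.194 at 0.

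Sequence features were read from the RefSeq promoters of 5433 members and 823 windows of 10% or more. The median number of CG sites in the 300 bases was 30 in members, 24 in windows of 10% or more and 14 over all 35116 promoters of the table. The median ratio of observed to expected CG was 0.868, 0.794 and 0.579 in the same order. Among these matched windows, the share of members was 61.9% with fewer than 10 CG sites, 77.4% with 10 to 19, 87.6% with 20 to 29, 90.2% with 30 to 39 and 92.4% with 40 or more. Matched windows were members more often than promoter island windows in general (72.8%), so these shares are to be compared with each other only. Among members, the level followed sequence little, with a Spearman correlation across the 5433 members of -0.172 with observed over expected CG and -0.0903 with the number of CG sites. These points share the libraries, and no p is given.

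Short motifs were counted on both strands as exact letters. The SP1 box GGGCGG was in 79.7% of the member promoters, 68.5% of those of 10% or more and 45.0% of all promoters. The ETS site CCGGAAG was in 17.2%, 16.9% and 10.3%, the CRE TGACGTCA in 3.31%, 2.92% and 1.85%, and the E-box CACGTG in 10.2%, 11.3% and 7.26%. NRF1 sites (TGCGCATGC) were in 2.60%, 3.28% and 1.56%, and YY1 sites (AAGATGGCG) in 3.30%, 2.67% and 1.75%. The TATA box TATAAA was less frequent in members, at 4.44%, 5.95% and 11.5%, and the CCAAT box CCAAT was at 33.9%, 31.7% and 34.6%. Members also held more CG sites than the windows of 10% or more, and the part of base composition in these shares was not tested. Members with an SP1 box had a median level of 0.929% and those without it 0.996%.

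The gene families with the fewest methylated promoter islands were cell cycle genes and developmental transcription factors. All 17 cell cycle windows were members, with a median level of 0.953%, from CDKN2B at 0.626% to CDKN1C at 6.06%. Both encode inhibitors of cyclin-dependent kinases. Of 43 windows of developmental transcription factors, 41 were members, with a median of 1.49%. They included OLIG2, a factor of oligodendrocytes and motor neurons, at 0.453%, EN1 at 0.457%, PAX6, a factor of eye and brain, at 0.581% and 3.02%, SOX17, an endoderm factor, at 1.37%, and TBXT, which marks early mesoderm, at 2.15%. The exceptions were MIXL1 at 15.6% and a window of MSX1 at 21.2%. Of 12 windows of DNA damage response genes, 11 were members, from ATM at 0.151% to TOP2A, a target of etoposide, at 1.47%. ATM, the kinase that senses double-strand breaks, had 0 methylated of 222, 401 and 555 calls in the propyl gallate, theophylline and 5-aza-dc libraries, which allow up to 1.35%, 0.748% and 0.541%.

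HOX genes, which set position along the body axis, lay highest among the lists. Of their 30 windows, 25 were members, with a median of 3.57%, against 1.00% over all members, and 6 reached 5% or more. HOXC9 was the highest member at 9.68%, and the 5 other windows lay between 10.4% and 19.2%. HOXB5 was at 9.49% in the vehicle control, and in the etoposide, propyl gallate, theophylline and 5-aza-dc libraries at 8.49%, 9.25%, 7.64% and 5.68%. A HOXD8 window (chr2:176128001-176129000) ran the other way, at 5.84%, 6.90%, 9.31%, 8.59% and 11.0% in that order. The other HOXD8 member window (chr2:176129001-176130000) was at 1.17%, 1.69%, 0.881%, 1.52% and 1.39%, and was not called in any comparison.

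Genes that every cell uses were mostly members, some beside a methylated window of the same gene. Of 20 housekeeping windows, 14 were members, with a median of 0.731%. GAPDH, a glycolytic enzyme, was at 0.705%, 0.582%, 0.644%, 0.803% and 0.959% in the 5 libraries in the order above. Windows of PPIA and HPRT1 were at 0.710% and 0.597%, while the windows next to them were at 90.6% and 80.8%. Of 46 ribosomal protein windows, 34 were members (73.9%), with a median of 0.842%. Of 29 histone windows 21 were (72.4%), with a median of 0.764%, and of 325 zinc finger windows 227 (69.8%), with a median of 1.00%. H4C12, a histone H4 gene, had the lowest level named here, with 1 methylated of 535 calls in the vehicle control (0.187%) and 0 in the other 4 libraries, which allows up to 0.546% of 549 calls after etoposide and up to 0.923% of 325 calls after theophylline.

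Germline, protocadherin and imprinted genes contributed few members. Of 9 windows of germline genes only that of MAEL was a member, at 0.613%, 0.682%, 0.240%, 0.621% and 0.356% in the 5 libraries. The 8 others lay between 15.5% (BOLL) and 95.3% (SYCP3), with a median of 90.3%. MAEL, whose sequence is above, had the most CG sites of the promoters shown. Of 10 clustered protocadherin windows 3 were members, namely PCDHGC3 at 1.25%, PCDHAC1 at 1.68% and PCDHB1 at 5.12%, and the 7 others had a median of 94.9%. Of 9 imprinted windows 4 were members (ZDBF2, GRB10 and both of PEG10), and the 5 others lay between 32.0% and 54.2%. Of 16 windows of tumour suppressors known to be methylated in cancers, 12 were members, from GSTP1, a glutathione transferase, at 0.622% to VHL at 8.53%.

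The label pluripotent stem cell was checked on promoter windows of its markers, although methylation does not measure expression. DNMT3B was at 0.895% in its island window, SALL4 at 0.875% in a shore, LIN28A at 1.52%, and the SOX2 window, annotated as 5′ UTR, at 0.458%. L1TD1 was at 13.7% and ZFP42 at 51.7%. The 2 POU5F1 windows the table labels promoter were at 85.7% and 94.3%, and that of LIN28B, in a shelf, at 88.7%. How far these 3 windows represent the active promoter was not tested. NANOG and DPPA4 had no promoter window, and TDGF1 had windows only at 1 to 5 kb. Other pluripotency genes brought the list to 16 members of 23 windows (69.6%, against 72.8% of all promoter island windows), with a median of 0.954%. Of the genes the study followed, 5 had promoter island windows here, and 7 of the 8 windows were members. These genes were CCNA2 and CCND2 (cyclins), RB1, CREBBP (a histone acetyltransferase) and JAG1, with members between 0.454% and 1.53%. NOTCH4, LIFR, SMAD4 and JUND had no such window. The study took mean rates over CpG sites around each locus, which is not the measure used here.

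The average member was lower after 5-aza-dc and differed little after the other chemicals. Its mean level was 1.79% in the vehicle control, and 1.74%, 1.75%, 1.86% and 1.57% in the etoposide, propyl gallate, theophylline and 5-aza-dc libraries. Etoposide differed from the vehicle control by -0.0515 points (95% counting interval -0.0622 to -0.0409) and propyl gallate by -0.0434 (-0.0538 to -0.0330). Theophylline differed by 0.0654 points (0.0546 to 0.0761) and 5-aza-dc by -0.224 (-0.235 to -0.214). Of the members, 54.0%, 53.6%, 46.2% and 57.1% were lower than in the vehicle control in the same order. Single windows differed more than counting alone gives: the root mean square difference was 1.1 to 1.23 points in the 10 pairs of libraries, against 0.548 to 0.608 from counting error. With the spread of the differences over windows in place of counting error, the half-width of the interval was between 0.0203 and 0.0215 points. That width treats windows of the same 2 libraries as independent units, so it does not test a difference between conditions. None of these intervals covers a spread between cultures. Between etoposide and propyl gallate the difference was 0.00816 points (-0.00271 to 0.0190). The largest among the 4 libraries other than 5-aza-dc was 0.117, theophylline above etoposide, and 5-aza-dc lay below each of them by 0.173 points (etoposide) or more. Against the mean of the other 4 libraries, etoposide differed by -0.000923 points, propyl gallate by 0.00927 and theophylline by 0.145, and the sign of propyl gallate thus turned with the reference.

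The difference after 5-aza-dc grew with the level of the window, while those after the other chemicals showed no trend in points beyond their counting intervals. To keep the compared libraries out of the classes, members were grouped by the mean of the 3 libraries outside each comparison. After 5-aza-dc the difference was 0.00149 points (-0.0257 to 0.0286) below 0.5%, -0.00831 (-0.0185 to 0.00183) from 0.5% to 1%, -0.118 from 1% to 2%, -0.480 from 2% to 5% and -1.39 (-1.46 to -1.32) from 5% to 10%. As a ratio of means this was 1.00, 0.990, 0.912, 0.842 and 0.800. The windows below 1% thus showed no difference beyond counting error, while 73.6% of the windows of 5% to 10% were lower. After etoposide the ratio rose from 0.879 below 0.5% to 0.998 from 5% to 10%. In points the difference was -0.0788 (-0.106 to -0.0513) in the lowest class and -0.0166 (-0.0964 to 0.0631) in the highest. These intervals overlap, and an equal difference in points gives a ratio nearer to 1 at a higher level. After propyl gallate the ratio lay between 0.941 and 1.00. Theophylline was above the vehicle control in each class, by 0.0476 to 0.0925 points.

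**Figure D3:**
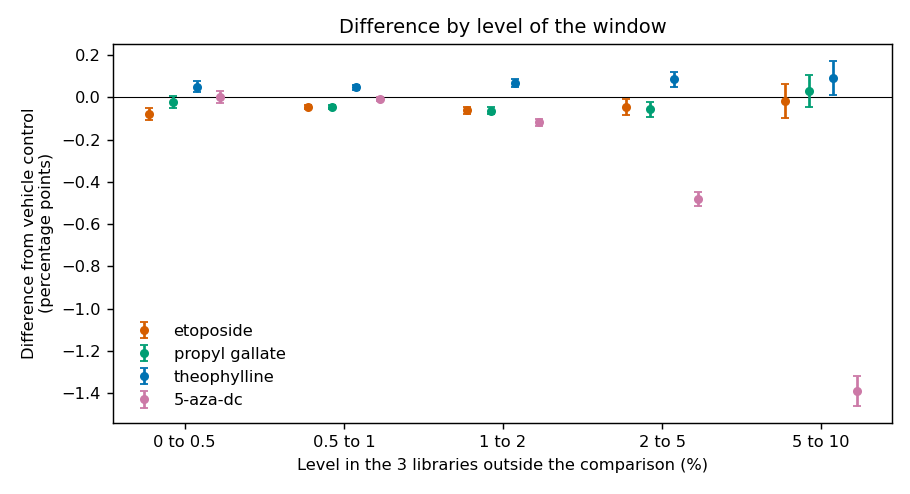
Difference in mean methylation level from the vehicle control in percentage points (vertical axis) for member windows in 5 classes of level in the 3 libraries outside the comparison, in percent (horizontal axis), with 1 point per chemical and bars for the 95% counting interval. The 5-aza-dc points fall from 0.00149 in the lowest class to -1.39 in the highest, while the other chemicals stay within 0.1 point of 0.

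The upper part of the distribution showed the same in another form. The 90th percentile of the members was 4.31%, 4.30%, 4.29%, 4.48% and 3.55% in the vehicle control, etoposide, propyl gallate, theophylline and 5-aza-dc libraries, and the 99th was 9.74%, 9.62%, 9.88%, 10.1% and 8.07%. Windows above 5% made up 8.13%, 8.16%, 7.93%, 8.36% and 5.61%. At the low end the vehicle control stood apart, with 201 windows without a methylated call against 288 to 351 in the other 4, and it also had the most calls. The 5-aza-dc library was the lowest of the 5 in 26.2% of the members, and at least 2 points below each of the others in 126, against 12 to 23 windows for the other libraries.

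**Figure D4:**
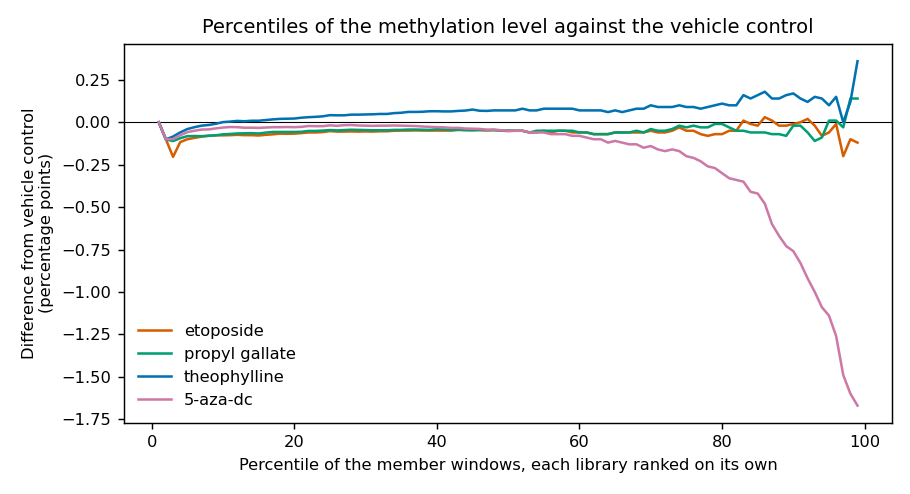
Difference from the vehicle control in percentage points (vertical axis) at each percentile of the member windows, each library ranked on its own (horizontal axis, 1 to 99), with 1 line per chemical. The 5-aza-dc line leaves the others above the middle of the distribution, and at the 90th percentile the levels are 3.55% against 4.31% in the vehicle control.

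At equal level, the ratios of other unmethylated sets after 5-aza-dc were close to those of the members from 1% upward and somewhat lower below 1%. In the class of 5% to 10% the ratio to the vehicle control was 0.800 in the members, 0.798 in 973 gene-body island windows, 0.809 in 375 intergenic island windows and 0.769 in 214 promoter windows outside islands. From 1% to 5% it was 0.872, 0.855, 0.835 and 0.871. Below 1% it was 0.992, 0.970, 0.964 and 0.942. There the difference of the members was -0.00641 points (-0.0161 to 0.00332), that of gene-body islands -0.0245 (-0.0396 to -0.00940), that of intergenic islands -0.0306 (-0.0634 to 0.00214) and that of promoters outside islands -0.0507 (-0.121 to 0.0194), so that gene-body islands alone left out 0. Over all levels below 10%, the mean difference was -0.349 points in gene-body islands, -0.446 in intergenic islands and -0.550 in promoters outside islands, where the vehicle control mean was 2.32%, 2.66% and 3.10% against 1.79% in members. In promoter islands of 10% or more it was -2.13 points from 63.8%, a ratio of 0.967. There etoposide, propyl gallate and theophylline were above the vehicle control by 0.335, 0.245 and 0.691 points, so etoposide and propyl gallate had opposite signs in the members and in the methylated promoter islands. Whether a difference between these sets goes beyond a spread between cultures was not tested, as there is 1 library per condition.

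Position within the island moved with the difference after 5-aza-dc. It was -0.172 points in members with both neighbours below 10%, -0.297 with 1 neighbour of 10% or more and -0.373 with 2, at ratios of 0.878, 0.860 and 0.848. Of these windows, 1.70%, 4.49% and 6.51% were called lower. Members that hold the gene start differed by -0.194 points and the others by -0.345, at ratios of 0.885 and 0.845. The level rises in the same order, and how far it accounts for these differences was not tested beyond the ratios given.

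Single windows were compared by Fisher's exact test on the calls of 2 libraries, with Benjamini-Hochberg adjustment over all 288391 windows, and called at an adjusted p under 0.01 with at least 2 points of difference. This compares 2 libraries and not 2 conditions. After etoposide 142 members were called higher (1.26%, against 6.31% of all windows) and 139 lower (1.23%, against 3.62%). After propyl gallate 147 were higher (1.30%, against 6.48%) and 137 lower (1.21%, against 3.58%). After theophylline 172 were higher (1.52%, against 7.99%) and 123 lower (1.09%, against 2.77%). After 5-aza-dc 76 were higher (0.673%, against 3.48%) and 381 lower (3.37%, against 10.2%). Members were called less often than the table as a whole in each direction, but both directions were limited by how members were chosen. In the vehicle control 75.3% of them lay below 2% and could not fall by 2 points. A window with a large rise could pass the limit of 10% on the mean of the 5 libraries and so leave the set. In all, 918 members (8.13%) were called in at least 1 comparison, against 31.1% of all windows. Since windows spread about 2 times as much as counting gives, the test was repeated with the calls divided by 4, chosen after the data were seen. It then called 3 higher and 4 lower after etoposide, 5 and 2 after propyl gallate, 4 and 3 after theophylline, and 4 and 16 after 5-aza-dc.

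Among the gene lists, the zinc finger and HOX genes held the largest numbers of called members. None of the 66 members of the cell cycle, DNA damage response, pluripotency, housekeeping, germline and imprinted lists, nor of the genes the study followed, was called in any comparison, where 8.13% of all members were, a share that amounts to few windows in lists of 1 to 17 members. The median levels of these lists lay between 0.502% and 0.954%, which leaves little room to fall by 2 points. Called members had median levels of 3.78% to 5.59%, by chemical and direction. Of the 25 HOX members, 6 (24.0%) were called in at least 1 comparison. After 5-aza-dc 1 was called higher (HOXD8) and 5 lower (HOXA6, HOXB4, HOXB5, HOXB13 and HOXC8), so 20% were lower, against 3.37% of all members. After theophylline 3 were lower (HOXA6, HOXB13 and HOXC8; 12.0%, against 1.09%), after etoposide 2 were lower (HOXB13 and HOXC8; 8.0%, against 1.23%), and after propyl gallate HOXD8 was higher and HOXA6 lower. These comparisons share the vehicle control. HOXB13 was at 6.16%, 3.01%, 4.04%, 2.54% and 2.64% in the 5 libraries and HOXC8 at 8.43%, 2.01%, 8.06%, 1.69% and 2.69%, so HOXC8 was high in the vehicle control and propyl gallate libraries. Their levels are higher than those of most members, which leaves more room to fall by 2 points. Of the 227 zinc finger members, 10 were called higher and 4 lower after etoposide, 4 and 4 after propyl gallate, 6 and 3 after theophylline and 6 and 10 after 5-aza-dc. The shares called higher were 4.41%, 1.76%, 2.64% and 2.64% in that order, against 1.26%, 1.30%, 1.52% and 0.673% of all members. The shares called lower were 1.76%, 1.76%, 1.32% and 4.41%, against 1.23%, 1.21%, 1.09% and 3.37%. In at least 1 comparison 27 (11.9%) were called, against 8.13% of all members. Called in at least 1 comparison were also 3 of 21 histone members (14.3%), 1 of 3 clustered protocadherin members (33.3%) and 1 of 41 developmental members (2.44%). Of 12 tumour suppressor members, 2 were called (16.7%). DAPK1 was called lower after propyl gallate and 5-aza-dc. HIC1, a transcriptional repressor, was called higher after propyl gallate, at 4.01%, 3.0%, 9.83%, 5.03% and 6.08% in the 5 libraries. Of the 10 DNA methylation machinery members, 1 was called (10.0%, against 8.13% of all members). It was a window of UHRF2, a relative of the DNMT1 cofactor UHRF1, lower in the first 3 comparisons, at 6.18%, 3.0%, 2.84%, 3.20% and 5.29%. The other UHRF2 member window was at 0.535%, 0.429%, 0.438%, 0.471% and 0.892%, and was not called. DNMT1 itself had 0.625% and 0.772% in the vehicle control and etoposide libraries and 0 methylated of 492, 387 and 576 calls in the others, which allow up to 0.610%, 0.775% and 0.521%. Of the 34 ribosomal protein members, 3 were called (8.82%). These were RPL22 and RPS15A (lower after propyl gallate) and RPL6 (lower after theophylline and 5-aza-dc), the last at 9.38%, 9.27%, 8.10%, 6.92% and 6.87%.

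The largest called rises were often in windows of few calls. DMXL1-DT, a divergent transcript beside DMXL1 (chr5:119070001-119071000), was at 2.21% in the vehicle control. The etoposide and propyl gallate libraries had 24.1% and 17.2%, and the theophylline and 5-aza-dc libraries 4.72% and 0.971%. These rest on 85 to 139 calls per library, and the interval after etoposide was 17.7% to 32.7%. RIMBP3, a gene of sperm development (chr22:18611001-18612000), was at 2.35%, 17.9%, 2.05%, 2.40% and 4.58%, with 90 calls after etoposide, and stood apart in that library alone. ZNF16, a zinc finger gene, was at 1.17%, 17.9%, 5.09%, 8.08% and 7.89% on 958 to 1194 calls, so the vehicle control was below each of the other libraries. Its rise after etoposide was also called with the calls divided by 4, as were those of ABHD17A, a depalmitoylase, from 1.27% to 5.61%, and of ENSG00000289000, from 5.56% to 13.0%.

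After propyl gallate the largest rises beside DMXL1-DT were in TMEM177, a mitochondrial membrane protein (chr2:119679001-119680000), and ARMH3 (chr10:102056001-102057000). TMEM177 was at 4.80%, 6.52%, 16.2%, 6.40% and 2.81% in the 5 libraries, so propyl gallate alone was high. ARMH3 was at 2.13%, 7.78%, 14.1% and 9.16% in the vehicle control, etoposide, propyl gallate and 5-aza-dc libraries, with 0 of 196 calls after theophylline, which allows up to 1.53%. With calls divided by 4, the windows called higher were XPO5, RNF126, ABHD17A, ZNF835 and ENSG00000271788. XPO5, which carries microRNA precursors out of the nucleus (chr6:43576001-43577000), was at 0.767% in the vehicle control, and at 2.0%, 8.29%, 7.68% and 5.21% in the libraries of etoposide, propyl gallate, theophylline and 5-aza-dc. RNF126, a ubiquitin ligase (chr19:663001-664000), was at 5.49%, 7.55%, 15.3%, 10.4% and 7.43%. Both had their lowest value in the vehicle control.

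After theophylline the largest rises were in BCAS4, SGCB and PTGR1. BCAS4 (chr20:50794001-50795000) was at 7.66%, 6.40%, 8.66%, 19.6% and 5.74% in the 5 libraries, on 209 to 388 calls. SGCB, part of the dystrophin complex of muscle (chr4:52038001-52039000), was at 3.35%, 6.50%, 3.14%, 11.4% and 4.41% on 1474 to 2534 calls. Against the vehicle control its adjusted p by Fisher's exact test was 1.93e-19 on all calls, and 0.00349 with the calls divided by 4. Both stood highest in the theophylline library. PTGR1, a prostaglandin reductase (chr9:111599001-111600000), was at 2.57%, 2.69%, 10.6%, 10.2% and 1.26%, high in the propyl gallate and theophylline libraries alike. With calls divided by 4, SGCB, XPO5, ZNF835 and ATP9A, a lipid flippase, were called higher.

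After 5-aza-dc the largest rises were in ZNF573, LINC02351 and NCOA4. ZNF573, a zinc finger gene (chr19:37817001-37818000), was at 1.82%, 7.12%, 2.70%, 2.47% and 13.2%, and LINC02351 (chr15:98421001-98422000) at 6.05%, 5.24%, 9.64%, 11.5% and 14.8%. NCOA4, which leads ferritin to degradation (chr10:46030001-46031000), was at 4.53%, 12.5%, 6.98%, 11.4% and 13.7% on 198 to 309 calls. In NCOA4 the vehicle control was the lowest library. With calls divided by 4, the windows called higher were XPO5, ENSG00000289000, MIR663A and TMEM201, an inner nuclear membrane protein. TMEM201 (chr1:9588001-9589000) was at 1.74%, 1.93%, 1.14%, 2.29% and 6.51%, so 5-aza-dc alone was high.

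Among the largest falls, the vehicle control was often the 1 library that stood apart. These windows were picked for a large fall from that control, which favours windows where it is high. HAND2, a transcription factor of heart and limb (chr4:173531001-173532000), was at 14.8% in the vehicle control, and at 3.42%, 5.32%, 2.47% and 1.89% in the libraries of etoposide, propyl gallate, theophylline and 5-aza-dc, on 298 to 481 calls. The other 4 libraries lay together, and this HAND2 window was called lower in all 4 comparisons, which share that control. The other HAND2 member window (chr4:173530001-173531000) was at 2.35%, 1.67%, 2.42%, 2.38% and 2.22% in the 5 libraries. It had more calls in each library and was not called in any comparison, so the fall was not seen across both windows of the gene. ZXDA, an X-linked zinc finger gene (chrX:57910001-57911000), was at 10.3%, 0.790%, 1.19%, 3.0% and 0.114% on 859 to 1479 calls, and ASPHD2 (chr22:26429001-26430000) at 20.2%, 8.95%, 9.23%, 6.12% and 4.25%, with 109 calls in the vehicle control. Each of the 4 treated libraries was below the control in both. ENSG00000267606 (chr19:56368001-56369000) was at 12.9%, 3.70%, 2.45%, 0.253% and 0.395%. Across the members, the vehicle control was at least 2 points above each other library in 78 windows, against 41 (5-aza-dc) to 117 (theophylline) for the others.

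Other falls had their own library pattern. ARMCX1, a mitochondrial outer membrane protein (chrX:101550001-101551000), was at 12.1% in the vehicle control and 12.7% after propyl gallate but 1.18% after etoposide, 4.04% after theophylline and 2.83% after 5-aza-dc. CTDNEP1, a nuclear envelope phosphatase (chr17:7252001-7253000), was at 10.5% in the control library and at 8.11% after 5-aza-dc, with 1.71% after etoposide and 0 methylated of 127 calls after propyl gallate and of 131 after theophylline, which allow up to 2.36% and 2.29%. ZNF562 (chr19:9675001-9676000) was at 13.8%, 7.78%, 10.6%, 0.429% and 3.42%, lowest after theophylline. These 2 windows had under 300 calls in each library.

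The windows called lower after 5-aza-dc with the calls divided by 4 included DAPK1, OAT, KCNE3, BTBD3 and TUBGCP3. DAPK1, a kinase of cell death and a tumour suppressor (chr9:87497001-87498000), was at 10.9%, 8.51%, 4.12%, 8.04% and 2.51% in the 5 libraries. Its adjusted p after 5-aza-dc by Fisher's exact test was 2.16e-24 on all calls, and 9.46e-05 with the calls divided by 4. OAT, ornithine aminotransferase (chr10:124419001-124420000), was at 11.7%, 7.63%, 8.74%, 10.7% and 4.48%. KCNE3, a potassium channel subunit (chr11:74467001-74468000), was at 10.3%, 7.43%, 7.38%, 5.80% and 2.35%. In these 3 the vehicle control was the highest and 5-aza-dc the lowest of the libraries. BTBD3 (chr20:11890001-11891000) was at 8.49%, 11.2%, 3.39%, 10.5% and 0.941%, and TUBGCP3, a subunit of the γ-tubulin complex (chr13:112588001-112589000), at 2.64%, 1.21%, 0.667%, 1.00% and 0.317%. Of those called lower after etoposide by that test, MACROD1, which removes ADP-ribose, was at 8.96%, 2.55%, 5.11%, 4.62% and 3.55%, and ABTB1 at 10.1%, 4.48%, 7.34%, 6.79% and 4.87%; the others were ZXDA and ARMCX1. Those called lower after propyl gallate were ZXDA and ENSG00000267606, and after theophylline NT5C3B, RUFY2 and ENSG00000267606.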

How the data were processed

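RRBS libraries were made from iPSCs of 1 line, 1 per condition. The authors trimmed reads with Trim Galore 0.5.0, aligned them with Bismark 0.20.0 to hg38 and tiled the CpG calls into windows of 1000 bases with methylKit 1.10.0, as the submitters' processing notes and the methods state. The labels and the methods name different DNA extraction kits. The deposited counts of the vehicle control are whole-number calls. Those of the other 4 libraries are a score: the authors scaled them, by 1.18, 1.09, 1.15 and 1.21 (etoposide, propyl gallate, theophylline, 5-aza-dc), and rounded them, and the unscaled calls were recovered here from these factors. The β-value is a fraction the authors deposited, used as such. No sample column was left unused (0).

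Levels are described without a test. Fisher's exact test, planned on the deposited counts, was run on the recovered calls because 4 libraries hold scaled values, and was tested on simulated data. The simulated calls were independent, at the deposited coverage, and lacked the spread beyond counting seen here. They therefore do not give the rate of false calls in these data. The genes named are the 3 largest called rises and falls per chemical, the highest and lowest of each list, the 5 windows on either side of the limit, the genes the study followed and those whose promoters are shown. Windows called with divided calls, UTF1, MAEL and other list members were chosen after their values were seen. The members and lists were chosen with earlier results of these data known. The reference genome at hand was of another build and was not used here. A window that the rule for named genes selects is not reported here. Alternatives are given at the end. Python 3.11.15, numpy 2.4.6, pandas 2.3.3, scipy 1.17.1 and numba 0.67.0 were used.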

Additional observations from a re-analysis of the deposited data

How the results depend on the processing

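Of the 44 mean differences recomputed, 35 stayed within the 95% counting interval of the value given above. With members chosen below 5%, that of 5-aza-dc was -0.127 points, and with members below 20% it was -0.355 and that of theophylline 0.0830. Pooling all calls gave -0.0319 for propyl gallate. Medians over windows gave 0.0450 for theophylline and -0.0963 for 5-aza-dc. With the mean of the other 4 libraries as the reference, etoposide was at -0.000923, theophylline at 0.145 and propyl gallate at 0.00927, a turn of sign. That reference holds the 5-aza-dc library, the lowest of the 5.

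Counts of called windows depended on the thresholds, by construction. They are given as higher and lower. With at least 5 points they were 28 and 29 after etoposide, 32 and 20 after propyl gallate, 35 and 29 after theophylline and 13 and 68 after 5-aza-dc. With no minimum difference they were 283 and 334, 303 and 347, 399 and 267, and 259 and 749 in the same order. With an adjusted p under 0.05, 220 were lower after etoposide, 220 lower after propyl gallate, 259 higher after theophylline and 115 higher after 5-aza-dc. With calls divided by 2 they were 36 and 31, 41 and 27, 35 and 25, and 19 and 137. With calls divided by 4, chosen after seeing the data, they were 3 and 4, 5 and 2, 4 and 3, and 4 and 16. The other 28 recomputed counts stayed within 1.5 times. The median level and the number of members moved little under coverage minimums of 30 and 300 and limits of 5% and 20%. No paired analysis was possible because each condition has 1 library, and for the same reason no replicate could be left out.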
